A study of Mus musculus with 2 samples.

Results

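Cluster 18 (C18) is a small group of conventional dendritic cells of the cDC1 lineage in which ribosomal protein (RP) genes took a larger share of the transcripts than in any other cluster. Its members were the cells to which the deposited graph clustering at resolution 0.5 gave the number 18. There were 78 of them among 24343 cells, 76 of 12224 in the wild-type (WT) library and 2 of 12119 in the Batf3-/- library. CITE-seq, which reads the transcripts of a cell together with tags carried by antibodies on its surface, had been run on CD11c+ MHCII+ splenocytes sorted after T and B cell depletion. Each genotype was 1 library from the pooled spleens of 6 female mice aged 8 weeks, WT C57BL/6 or Batf3-/- on that background. Batf3-/- animals lack the gene from birth in every tissue, and pooling leaves no value for a single mouse. With 1 library a genotype there is no test. Intervals are exact 95% intervals for counting error only, and a difference of more than 2-fold is called as a description. Clusters were drawn from the same transcripts, so levels of C18 against other clusters describe it and support nothing further.

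Cross-presenting cDC1 take up material from dead cells and present its antigens on MHC class I to CD8+ T cells. Their development depends on the transcription factors Irf8 and Batf3, and the chemokine receptor Xcr1 and the dead-cell receptor Clec9a mark them. RP genes encode the proteins of the small (Rps) and large (Rpl) subunits of the cytosolic ribosome. Their messengers are short, abundant and very stable in the cytoplasm, and most begin with a run of pyrimidines that couples their translation to growth signals. Other RNAs are kept in the nucleus, among them Malat1 and Neat1, while messengers of immediate-early genes such as Jun and Fos are made within minutes of a stimulus and decay fast.

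The WT library held 122530055 unique molecules (UMIs) and the Batf3-/- library 114517073, with a median of 8374.5 and 8516.0 UMIs a cell. Batf3 itself stood at 206 counts per 1000000 UMIs (CPM) in WT and 2.49 CPM in Batf3-/- cells. The libraries shared 56 cell barcodes, none of them in C18. C18 was 0.622% of WT cells (interval 0.490 to 0.778%) and 0.0165% of Batf3-/- cells (0.0020 to 0.0596%). Among cells of C18 and the other cDC1 clusters, which are C4, C6, C12 and C17, it was 2.14% in WT (76 of 3559) and 0.253% in Batf3-/- (2 of 792). These sums differ in their mix. In Batf3-/- they held 31 cells of C4, 727 of C6, 31 of C12 and 1 of C17, against 2202, 797, 394 and 90 in WT. Beside C4 alone there were 2 C18 cells to 31 in Batf3-/- and 76 to 2202 in WT, so no loss beyond that of C4 is read from these shares. Doublet calling marked 2 of the 76 WT cells, against 239 of 2202 in C4. The deposited phase was G1 for 66, S for 10 and G2M for 0 of the 76 cells. The deposited reference label was DC.8+, the CD8+ dendritic cell of the spleen, for 72 of 76 C18 cells and for 1837 of 2202 cells of C4, the large WT cDC1 cluster that serves as the comparison below.

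The name of the cluster rests on a share, and the RP UMIs behind it were fewer than in C4. RP genes took a median of 33.8% of the UMIs of a C18 cell (lowest 20.5%, highest 46.1%) and 24.0% in C4 (highest 35.8%). The C18 median was the highest of the 20 WT clusters. Next was C19 (29 WT cells, in which erythroid genes summed to 300161 CPM of UMIs outside RP genes), at 31.7% (quartiles 17.6 and 34.2%). In absolute terms a C18 cell held fewer RP UMIs, with a median of 2134 (quartiles 1638 and 2801) against 3750 in C4, and 74 of 76 cells were below the C4 median. UMIs on all other genes were lower still, with a median of 4140 (quartiles 3013 and 5289) against 11631 in C4, and 75 of 76 cells were below the lower quartile of C4. As ratios of medians, C18 held 0.569 of the RP UMIs of C4, 0.356 of the other UMIs and 0.417 of the detected genes. By median RP UMIs C18 ranked 8th of 20 clusters, above C0 (1577) and the cDC1 clusters C12 (1008) and C17 (80.5), and by median other UMIs it ranked 16th. A share alone cannot tell a gain of RP RNA from a loss of other RNA. Counts per cell also depend on how well a droplet was captured, whose part in them was not tested.

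**Figure D1:**
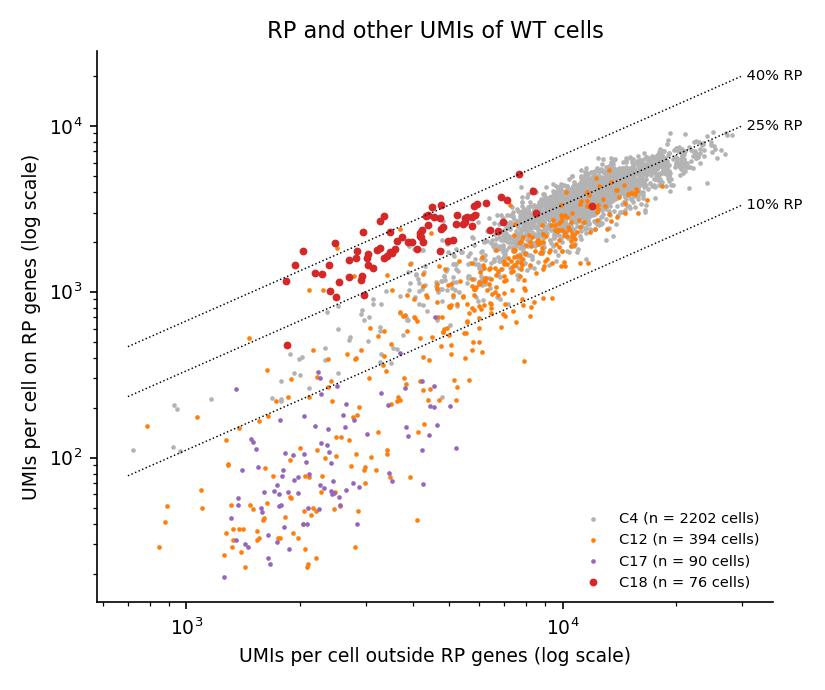
UMIs on RP genes (y axis, log scale) against UMIs on all other genes (x axis, log scale), 1 point per WT cell in C18, C4, C12 and C17, with dotted lines of equal RP share. C18 cells lie along the upper edge of the cloud and to the left of most C4 cells, with medians of 4140 other and 2134 RP UMIs against 11631 and 3750.

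C18 cells also showed fewer genes at equal UMIs. After each cell was thinned to 1000 UMIs, a C18 cell showed a median of 408 genes, a C4 cell 517 and a cell of C0, the largest cluster, in which cDC2 markers summed to 5552 CPM, 564. Thinning drew from all UMIs, RP genes included, so the higher RP share of C18 enters this count and the thinned shares of cells below. The 50 most abundant genes outside RP took 47.9% of the other UMIs in C18 and 40.1% in C4. The mitochondrial share was a median of 2.93% in C18 (lowest 0.202%, highest 19.8%) and 4.03% in C4.

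Since RP genes alone change the total, gene levels below are CPM of the UMIs outside RP genes (the RP-free total), pooled over the 76 WT C18 cells (328100 such UMIs) or the 2202 WT C4 cells (25980267). Differences are log2 ratios of these levels, C18 over C4. Of 17751 genes, 2597 were abundant enough to compare (20 or more UMIs in all and 50 CPM or more on average). Of these, 27 were more than 2-fold higher in C18 (1.04%) and 460 more than 2-fold lower (17.7%), with a median log2 ratio of -0.07 over all 2597. On the total of all UMIs every log2 ratio is lower by 0.20, 12 of 1917 genes were called higher (0.626%) and 358 lower (18.7%). Under median-of-ratios scaling 37 of the 2597 were called higher (1.42%) and 418 lower (16.1%). Values between 0 and 0.20 therefore change sign with the total.

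All 76 RP genes were above 0, at a median log2 ratio of 0.70 and a range of 0.37 to 1.10. The 46 large-subunit genes and the 30 small-subunit genes had the same median, 0.70 each. Of the 76, 1 passed 2-fold, Rps26 (chr10:128624534-128626747, minus strand, GRCm38), with 5401 CPM in C18 (interval 5152 to 5658) and 2511 CPM in C4. Next were Rplp1, an acidic protein of the ribosome stalk, at 15355 against 7893 CPM (log2 ratio 0.96), and Rpl26 at 8193 against 4489 CPM (0.87). Among the lowest ratios were those of Rpl23a (0.37) and Rpl4 (0.44). RP genes thus moved as a narrow band with no gene of its own standing far apart. The count past 2-fold depends on the C4 cells taken as reference, as given with the other lists below. Many have processed pseudogenes, and reads shared with these make the value of a single RP gene uncertain.

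Pyrimidine-rich starts can be seen in the sequences of these genes. In windows of 15 bases before and 15 after the RefSeq start (GRCm38.p6), a first base C followed by at least 4 bases C or T, read on the gene's strand, was found in 13 of 56 RP genes with an entry (23.2%), in 4 of 13 genes outside RP known for such starts (30.8%), which are mostly genes of translation,, in 0 of 18 immediate-early and heat shock genes and in 813 of all 27025 genes (3.01%). Shown are the matching RP genes with the highest ratios and the 2 of these 4 other genes with the highest ratios, with the pyrimidine run from the first transcribed base in capitals. They were Rps27 (chr3:90213634-90213663, minus strand, log2 ratio 0.82), Rps10 (chr17:27635230-27635259, minus strand, 0.78), Rps21 (chr2:180257364-180257393, plus strand, 0.74), Fau (chr19:6057932-6057961, plus strand, 0.80) and Rack1 (chr11:48800345-48800374, plus strand, 0.68). The other 2 were the initiation factor gene Eif3f (0.51) and Nap1l1 (-0.28), which encodes a nucleosome assembly protein.
Rps27: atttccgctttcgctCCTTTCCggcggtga
Rps10: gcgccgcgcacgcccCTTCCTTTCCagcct
Rps21: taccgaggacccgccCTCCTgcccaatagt
Fau: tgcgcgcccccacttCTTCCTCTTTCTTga
Rack1: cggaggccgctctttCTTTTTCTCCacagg
A match is a description of letters at an annotated start, which may lie some bases from the start used in these cells.

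Outside RP genes, most genes known for such starts, mainly those of translation, were also above 0. Of 20 tested, 17 were above 0 (1187 of all 2597 were), 0 passed 2-fold and the median log2 ratio was 0.40 (0.19 on the total of all UMIs). The elongation factor subunit Eef1b2 stood at 9893 against 5326 CPM (0.89), the translation-controlled protein gene Tpt1 at 18814 against 10741 CPM (0.81), Fau, which encodes a fusion with a ribosomal protein, at 11774 against 6744 CPM (0.80), and the ribosome scaffold gene Rack1 at 4688 against 2933 CPM (0.68). The elongation factor Eef2 (0.08) and the poly(A)-binding Pabpc1 (-0.06) were near C4, and the lowest was the intermediate filament gene Vim (-0.77). Other initiation factors had a median of 0.18 over 25 genes (-0.01 on the total of all UMIs), with 0 higher and 1 lower, the scaffold Eif4g1 (-1.39), while the small subunits Eif3g (0.71), Eif3k (0.64) and Eif1 (0.67) had the higher values. Of 25 ribosome biogenesis genes only 9 could be compared, 8 of them above 0 (median 0.38) and none past 2-fold, and the whole list summed to 1914 CPM in C18 and 1881 in C4.

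Among the gene lists, nuclear RNAs had the lowest median log2 ratio (-4.40). Single genes of another list, such as Jun (-5.07), were lower than Malat1 and Neat1. Malat1 was a median of 0.069% of a cell's RP-free UMIs in C18 (quartiles 0.036 and 0.124%, highest 8.04%) and 4.29% in C4 (quartiles 2.54 and 7.19%). The C18 median was the lowest of the 20 WT clusters, and that of C19 was the next lowest, at 0.232%. In the pools Malat1 had 6443 CPM in C18 (2114 UMIs) and 52937 in C4, a log2 ratio of -3.04 (interval -3.10 to -2.98). Neat1, the RNA on which paraspeckles are built, had 7 UMIs in C18, 21.3 against 451 CPM (-4.40). Kcnq1ot1, an imprinted antisense RNA of the nucleus, had 3 UMIs (9.14 against 329.8 CPM, -5.17). All 3 members of this list were lower. Xist, which coats the inactive X chromosome in female cells, was on no list and among the lowest ratios, at 82.3 against 1233 CPM (-3.91). Only 9 of 76 C18 cells had an Xist UMI, and 1 of these cells held 14 of the 27.

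The Malat1 levels split the cluster. In 67 of the 76 cells Malat1 was under 0.5% (median 0.060%), in 2 it lay between, and in 7 it was at or above 1.5% (median 3.90%, a level within the C4 quartiles). These limits were set after the values were seen. Without the 7 cells the ratio of Malat1 to C4 was -5.83. The 7 cells had a median RP share of 39.8% and, on so few cells, ratios to C4 of -2.71 for Neat1, -3.61 for Jun, -4.18 for Fos and -3.71 for Hspa1a. Low Malat1 was therefore common but not general in C18, while low immediate-early genes were found in both sets of cells.

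**Figure D2:**
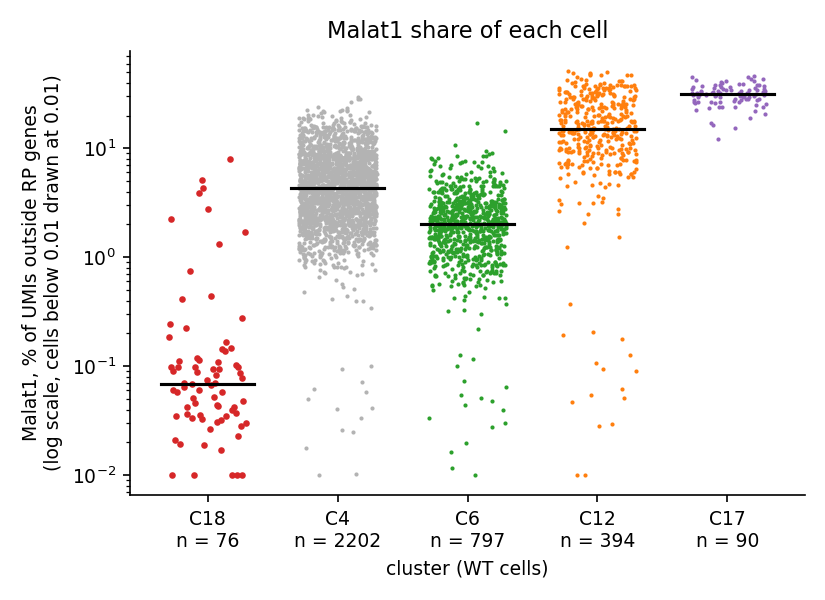
Malat1 as a percentage of RP-free UMIs (y axis, log scale, cells under 0.01% drawn at 0.01) by cluster (x axis), 1 point per WT cell, with a bar at each median. Most C18 cells lie far below C4, at a median of 0.069% against 4.29%, and 7 C18 cells lie at or above 1.5%.

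Immediate-early and heat shock genes, which respond to stimulation and to handling of tissue, were low as a group. Of 21 tested, 19 were past 2-fold lower and 0 higher, with a median log2 ratio of -2.78. Jun had 11 UMIs in C18, 33.5 against 1128 CPM (-5.07, interval -6.07 to -4.23), each in a different cell. Its dimer partner genes Fos (36.6 against 837 CPM, -4.52) and Fosb (12.2 against 332 CPM, -4.77) were also low. The inducible chaperone Hspa1a had 54.9 against 1805 CPM (-5.04), but shares near-identical sequence with Hspa1b (-3.35), so the split between them is uncertain. The RNA-decay factor Zfp36 was at -3.57, the transcription factor Klf6 at -3.60, the orphan receptor Nr4a1 at -2.97 and the phosphatase Dusp1 at -2.78. The 2 genes that were not called were chaperones, Hspa8 at 3965 against 2885 CPM (0.46) and Hsp90aa1 at 415 against 679 CPM (-0.71). After thinning to 1000 UMIs, Jun was seen in 5.26% of C18 cells and 48.1% of C4 cells, Fos in 1.32% and 39.7%, and Hspa1a in 3.95% and 66.5%. Unthinned and pooled, Jun was at 2148 CPM in C0, 962 in C6, 807 in C12 and 812 in C17, all above C18. The summed list was also low in C17, at 7777 CPM, and in C19, at 6690 CPM, against 5962 in C18 and 13790 in C4. Hspa8, which was not called, made up 3965 of the 5962 CPM in C18 and 2885 of the 13790 in C4. Sums and shares of the list in C18 therefore rest mostly on that gene. Per cell the list, Hspa8 included, took a median of 0.536% of RP-free UMIs in C18 (quartiles 0.418 and 0.682%), 0.591% in C17 (0.458 and 0.949%) and 1.37% in C4 (1.04 and 1.70%). In C17 over C4 the ratios were -0.47 for Jun, -1.35 for Fos and -1.62 for Hspa1a.

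**Figure D3:**
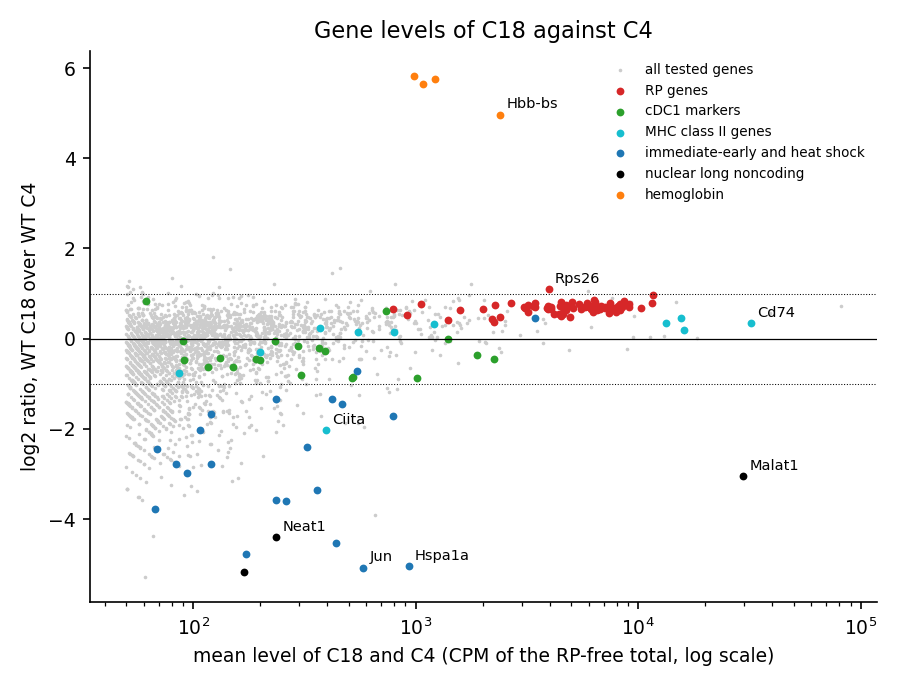
Log2 ratio of WT C18 over WT C4 (y axis) against the mean level of both in CPM of the RP-free total (x axis, log scale), 1 point per tested gene, with lists in colour and dotted lines at 2-fold. RP genes form a band between 0.37 and 1.10, and 19 of 21 immediate-early and heat shock genes and all 3 nuclear long noncoding RNAs lie below the lower line.

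Other genes with the lowest ratios rested on 1 to 3 UMIs in C18. The transcription factor Mef2c had 2 UMIs in C18 (6.10 against 126 CPM, -4.37), the uncharacterised Gm26740 had 1 (3.05 against 119 CPM), Plekhm3 had 3 (-3.58) and the heat shock gene Hsph1 had 3 (-3.78). With 1 to 3 counts the intervals are wide, -5.86 to -2.03 for Plekhm3. Of 17 genes linked to progenitors only 6 were tested, and 5 of these were lower, where 17.7% of all 2597 tested genes were. Among the 5 were the transcription factors Runx1 (-2.32), Etv6 (-1.79) and Bcl11a (-1.60) and the receptor tyrosine kinase gene Kit (-1.46). Flt3, the receptor that sustains dendritic cells, was at -0.56. Of 14 interferon response genes 4 were tested and 2 were lower, Ifi27l2a (-1.75) and Irf7 (-1.58). Genes lower in C18 reach the minimum level mainly through C4, so such counts describe the tested members only. Neither list was set against genes of like transcript length. In the longest of the length groups given below, 46.8% of protein-coding genes were past 2-fold lower. Mef2c (6277 bases) and Plekhm3 (8562 bases) are of lengths within that group.

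Lower genes were more often those with long transcripts, a relation looked for after the values had been seen. Whether reads in introns were counted, which bears on nuclear RNAs and long genes, is not given in the sources used here. Protein-coding genes outside RP were put in 4 groups of like size by their longest GENCODE M21 transcript (2497 genes). In the shortest group (204 to 1732 bases) the median log2 ratio was 0.30 and 2.24% of genes were past 2-fold lower. In the second (1733 to 2793 bases) the values were 0.00 and 7.05%. In the next (2803 to 4243 bases) they were -0.22 and 16.2%, and in the longest (4248 to 27908 bases) -0.93 and 46.8%. Genes past 2-fold lower had a median length of 5017 bases, genes past 2-fold higher 1325 and RP genes 1100. Among genes of at least 200 CPM, where counts are higher, the medians ran 0.41, 0.09, 0.07 and -0.43. Taking the median transcript of a gene in place of its longest gave 0.17, 0.03, -0.11 and -0.62.

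Length groups can be set beside single lists. The 232 other protein-coding genes of at most 1000 bases had a median of 0.38 (quartiles 0.17 and 0.61), and 37 of them exceeded the RP median of 0.70. Jun (3189 bases), Fos (2108 bases) and Hspa1a (2967 bases) lay in length groups with medians of -0.22 and 0.00. They are among the lowest of their list, and the list as a whole was not set against genes of like length. Nor were the genes outside RP known for pyrimidine starts (median 0.40) or those of oxidative phosphorylation (0.46), the mitochondrial ribosome (0.30) and the proteasome (0.22). Beside these medians stand 0.38 for the genes of at most 1000 bases and 0.30 for the shortest length group. Of 22 long noncoding RNAs tested, 9 were lower (40.9%).

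The same comparison was made for the other cDC1 clusters against C4. The order was opposite in C17 over C4, with -2.24, -1.27, -0.41 and 0.42 from the shortest to the longest group. There RP genes had a median of -2.91 and Malat1 a ratio of 2.55, at 31.8% of the RP-free UMIs of a median cell. In C12 over C4 the order was also opposite, with medians of -0.75, -0.51, -0.20 and 0.16. C6, the deepest of the clusters, ran in the order of C18 over a smaller range, at 0.23, 0.20, 0.10 and -0.08. C18 and C17 thus stood at opposite ends of C4 in RP genes, Malat1 and length together.

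**Figure D4:**
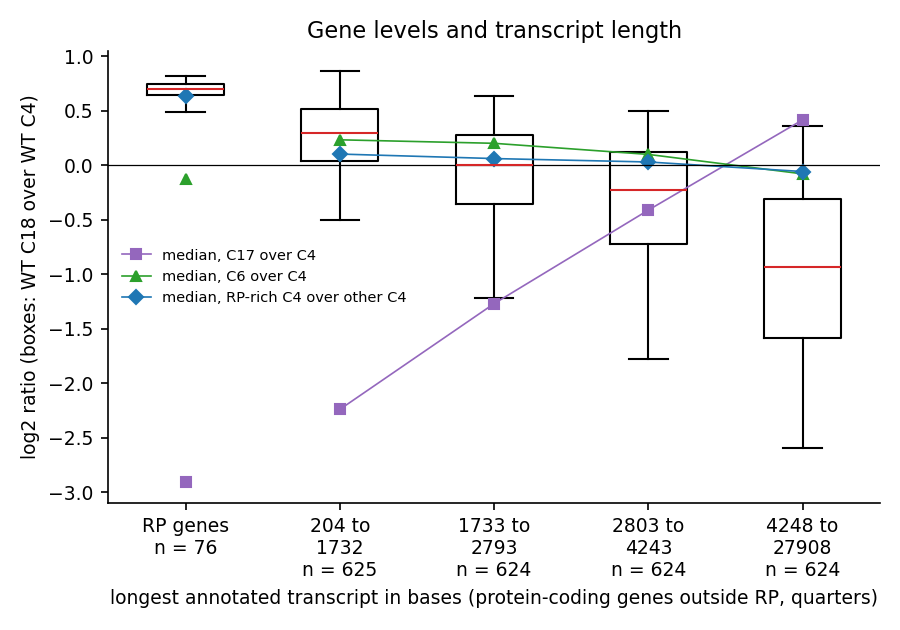
Log2 ratio over WT C4 (y axis) by transcript length group (x axis, shortest to longest), for protein-coding genes outside RP. Boxes (median and quartiles, whiskers from the 5 to the 95% point) are C18, with RP genes apart on the left, and symbols are medians of C17, C6 and RP-rich C4 cells. The C18 medians run from 0.30 to -0.93 and those of C17 from -2.24 to 0.42.

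Some C4 cells had an RP share like that of C18. They were the 17 C4 cells at or above the lower quartile of C18 (31.9 to 35.8% RP), with a median Malat1 of 3.45% (lowest 0%, highest 7.79%). This is a range cut from a share and not a cell type. Against these cells the median of RP genes was 0.08, yet 458 of 2573 genes were past 2-fold lower (17.8%) and 74 higher (2.88%). Malat1 was at -2.51, Neat1 at -2.73, Xist at -3.99, Jun at -4.29 and Hspa1a at -4.63, and the length medians ran 0.20, -0.09, -0.26 and -0.83. Those 17 cells over the remaining C4 cells had length medians of 0.10, 0.06, 0.03 and -0.06 and ratios of -1.68 for Neat1, -0.79 for Jun, -0.68 for Fos, -0.54 for Malat1, -0.41 for Hspa1a and 0.08 for Xist. C4 cells of like depth (106 cells with 4582 to 8098 UMIs) gave larger differences for some measures, with an RP median of 1.08, a Malat1 ratio of -3.48 and length medians of 0.68, 0.15, -0.35 and -1.35. For Jun (-4.84), Fos (-4.23) and Hspa1a (-4.99) the differences were slightly smaller than against all C4 cells. These 106 cells differed from C4 as a whole in more than depth. Their medians were 19.8% RP, 6.20% mitochondrial and 5.29% Malat1, against 24.0%, 4.03% and 4.29% in C4.

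C18 cells expressed the cDC1 markers. Of 21 cDC1 markers, all were detected and 20 tested, with 0 past 2-fold in either direction and a median of -0.44. Their summed level was 9643 CPM in C18, 12311 in C4 and 1465 in C0. Naaa, a lysosomal amidase gene, had 1390 against 1395 CPM, Batf3 280 against 313 CPM, Clec9a 354 against 427 CPM and the adhesion gene Cadm1 341 against 392 CPM. Lower, though within 2-fold, were Irf8 (1899 against 2591 CPM, -0.45), Xcr1 (366 against 670 CPM, -0.87), the transcriptional inhibitor Id2 (-0.86) and Wdfy4 (-0.86), which serves cross-presentation. On the total of all UMIs 4 of 19 tested markers were past 2-fold lower, where 358 of all 1917 tested genes were (18.7%). That count is near the share over all genes. Above C4 were the coreceptor gene Cd8a (887 against 581 CPM, 0.61) and the integrin gene Itgae (0.84, on 26 UMIs). After thinning to 1000 UMIs, Clec9a was seen in 32.9% of C18 cells, 26.1% of C4 cells and 0.535% of C0 cells, and Xcr1 in 19.7%, 37.5% and 0.378%. The order of C18 and C4 for Clec9a turned at 2000 UMIs (39.5% and 47.3%) and without thinning (77.6% and 96.1%), so no order is read from it.

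MHC class II genes, which present antigen to CD4+ T cells, were within 2-fold of C4 apart from their regulator. The median over 11 genes was 0.20 (0.00 on the total of all UMIs). The invariant chain gene Cd74 had 35843 against 28064 CPM (0.35) and H2-Eb1 18007 against 13003 CPM (0.47), whereas Ciita, the transactivator of the class II genes, had 155 against 636 CPM (-2.03, interval -2.46 to -1.64) and was the 1 gene called. MHC class I genes and the loading machinery had a median of -0.08 over 12 genes with none called. Lysosomal genes had a median of -0.15 over 13 genes with none called, and the protease inhibitor Cst3, at 46672 against 31481 CPM (0.57), led them. Of 7 maturation genes tested none was called (median -0.56), and the highest was Apol7c (0.86), at 2030 against 1116 CPM and at 4060 in C12. Actin genes had a median of 0.26 over 12 genes, from Tmsb4x, the actin-monomer binder (101368 against 61339 CPM, 0.72), to the actin bundler Lcp1 (-0.89). Nuclear-encoded genes of oxidative phosphorylation were above 0 in 67 of 73 (median 0.46), with 1 called higher, the assembly factor gene Ndufaf3 (1.02 on 26 UMIs), those of the mitochondrial ribosome in 43 of 50 (median 0.30), with 1 called higher, Mrpl46 (2.14-fold on 24 UMIs), and those of the proteasome in 25 of 31 (median 0.22). On the total of all UMIs these medians were 0.26, 0.15 and 0.02. The 12 tested genes of the mitochondrial genome had a median of -0.07. Only 2 of 30 cell cycle genes could be compared.

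Several of these counts changed with the reference. The 106 C4 cells of like depth had a lower median RP share than C4 as a whole (19.8% against 24.0%). Against them, 254 of 2691 genes were past 2-fold higher (9.44%) and 746 lower (27.7%). There 47 of 76 RP genes were higher (median 1.08), as were 6 of 20 genes outside RP known for pyrimidine starts (median 0.78), 19 of 73 of oxidative phosphorylation (0.85), 13 of 43 of the mitochondrial ribosome (0.84) and 5 of 29 of the proteasome (0.72). Of the cDC1 markers 5 of 20 were lower there (median -0.63), of MHC class I genes 3 of 13 were lower and 1 higher, and of maturation genes 6 of 9 were lower and 1 higher (median -1.42). Against C4, C6, C12 and C17 together, 36 of 2649 genes were higher (1.36%) and 490 lower (18.5%), among them 8 of 11 maturation genes and 5 of 6 cell cycle genes, while 0 of 20 cDC1 markers were lower and 1 higher. Against the 17 C4 cells of high RP share the 20 genes outside RP known for pyrimidine starts had a median of -0.02, with none called. Of 21 cDC1 markers tested there 1 was lower and 0 higher (median -0.26). Immediate-early and heat shock genes were lower in each case, with 18 of 20, 20 of 21 and 16 of 18 called in that order.

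Markers of other cell types were lower than or near their level in C4 apart from erythroid genes. The summed cDC2 list was 396 CPM in C18, 876 in C4 and 5552 in C0, with 5 of its 17 genes at 0 in C18 and S100a4 (-2.07) and Tbc1d4 (-1.73) called lower. B cell markers summed to 27.4 CPM with 7 of 8 genes at 0, T cell markers to 6.10 CPM with 8 of 9 at 0 and NK cell markers to 48.8 CPM with 7 of 10 at 0. Neutrophil genes had 0 UMIs, which allows up to 3 counts in the pool, or 9.14 CPM. Monocyte and macrophage genes summed to 369 CPM in C18 and 554 in C4, of which Lyz2 was 302 and 411 CPM. Plasmacytoid genes summed to 177 against 287 CPM.

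Erythroid genes were the exception in the pool and came from 2 cells. Hba-a2 (5.83), Hba-a1 (5.76), Hbb-bt (5.65) and Hbb-bs (4.97) had the highest ratios of all, and all 4 tested members of the list were called higher. Of 3656 UMIs on the list, 2736 were in 1 cell and 912 in another, the next cell had 6, and 71 of 76 cells had 0. In C4, too, a few cells carried the list, with 3549 of 7009 UMIs in 1 cell and 1897 of 2202 cells at 0. Without the cells holding at least 100 such UMIs, 2 in C18 and 7 in C4, the list summed to 25.9 CPM in C18, on 8 UMIs, and 33.0 CPM in C4, and none of the 4 genes was abundant enough to compare. No difference in erythroid genes was detectable at that depth. Neither cell was called a doublet, and whether the RNA came from erythroid cells, uptake or the droplet was not tested. Reads of the paired globin genes cannot be split with certainty.

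Among other genes past 2-fold higher, Gm34084, a gene without a known function, had 683 against 229 CPM (1.57) and was seen in 52 of 76 cells. Cd207, which encodes the lectin langerin, had 219 against 74.8 CPM (1.55) in 26 cells, with 44.5 CPM in C6 and 0.600 in C0. Lgals3, the galectin-3 gene, had 2490 against 1073 CPM (1.21) in 73 of 76 cells, the apolipoprotein gene Apoe 616 against 226 CPM (1.45) in 43 cells, and Bcl2a1b, a survival gene with near-identical copies, 1125 against 486 CPM (1.21). Hmox1, the heme-degrading enzyme, had 192 against 54.9 CPM (1.81), but 1 cell held 38 of its 63 UMIs. Against C4 cells of like depth, Cd207 was at 1.07 and Gm34084 at 1.41, whereas Lgals3 (0.70), Apoe (0.74), Bcl2a1b (0.62) and Hmox1 (0.18) were within 2-fold. Also past 2-fold higher were 1110008P14Rik (1.34) and Ftl1-ps1 (1.28), a copy of a ferritin gene whose reads are shared with the parent.

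Antibody-derived tags (adt) did not enter the clustering. A row of the tag table was named only where it and its gene were each other's best match in both libraries, which left 7 of 11 rows without a name. The whole tag count was a median of 477 in C18 and 694 in C4. The CD8A tag had a median of 90 counts in C18 (lowest 29, highest 168), 122 in C4 and 41 in C0, and 74 of 76 C18 cells were above the C0 median. Per 1000 tag counts of the cell the order was 191 in C18 and 181 in C4, so the lower CD8A count went with a lower tag total. Row 8, whose best match was Xcr1 in WT and Cd24a in Batf3-/- cells, had 65 counts in C18 (33 to 130), 131 in C4 and 34 in C0. All 76 C18 cells were below the C4 median, and per 1000 row 8 was still lower, 137 against 184. In C12 and C17 it had 70 and 61.5 counts, or 126 and 111 per 1000. Row 11, also without a name, had 41 counts in C18 and 80 in C4, with all 76 C18 cells below the C4 median. Per 1000 it was 84.3 against 115, and its counts were 67 in C0, 67 in C12 and 70.5 in C17. The CD11C tag, whose match was weak, had 61.5 against 104 counts, with 67 in C12 and 60.5 in C17. CD172A, a cDC2 protein, had 22 counts in C18, 23 in C4 and 35 in C0, and CD4 had 26, 27 and 38. Per 1000 tag counts, C18 lay between C4 and C0 for both. The values were 45.0 in C18, 33.6 in C4 and 69.0 in C0 for CD172A and 56.0, 39.5 and 74.4 for CD4. The cDC1 clusters C12 and C17 were near C18, with 45.4 and 43.7 for CD172A and 52.9 and 55.7 for CD4. Raw counts of both tags were near those of C4, and the tag total was lower in C18 (477 against 694). The authors report background counts for every antibody used. No cDC2 protein on C18 cells is therefore read from the order per 1000.

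**Figure D5:**
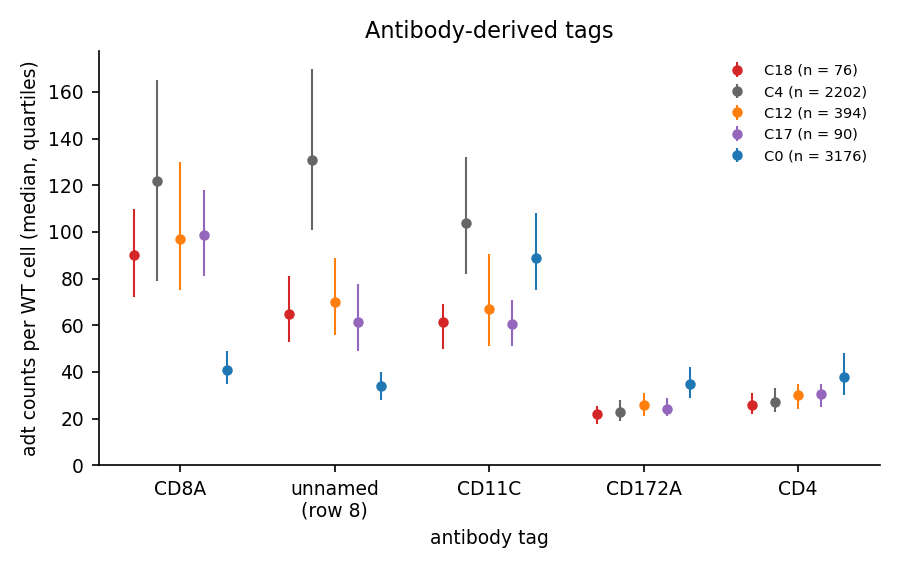
Counts of the adt per WT cell (y axis, median with lines from the lower to the upper quartile), coloured by cluster. The x axis gives the CD8A, CD11C, CD172A and CD4 tags and row 8. For CD8A, C18 (median 90) lies between C4 (122) and C0 (41), and for row 8 the medians are 65 in C18 and 131 in C4.

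C18 was most like C4. Across 3244 genes outside RP, which are not independent replicates, its log2 levels correlated best with those of C4 (Pearson 0.87, Spearman 0.82), followed by C6 (0.84 and 0.82) and C2 (0.68 and 0.61). Among the 20 nearest WT neighbours of a C18 cell, 90.1% on average were C18 cells when all genes could enter, and only 1 of the 2000 variable genes was then an RP gene. With all Rpl and Rps genes left out of the genes and the total the share was 89.8%, with 9.01% in C4 and 0.855% in C6, where a random draw of WT cells would hold 0.622%. Most neighbours were C18 cells for 74 of 76 cells, and 1 cell had none. Cluster membership was drawn from the same transcripts and RP genes hardly entered the variable genes, so both shares are descriptions. By ratio over all other WT cells the first 10 genes were the 4 globins, Cd207, Fndc5, Hmox1, Lgals3, Cxcl9 and Gm34084. None of them was on the list of cDC1 markers. Cd207, though not listed, was seen unthinned in 34.2% of C18 cells, 31.1% of C4 cells and 0.315% of C0 cells.

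The 2 Batf3-/- cells of C18 were unlike each other. The first had 3071 UMIs, 862 genes, 35.0% RP, 0 UMIs of Malat1, 9 UMIs of cDC1 markers with 0 of Xcr1, Clec9a and Batf3, 8 UMIs of immediate-early genes and 70 counts of the CD8A tag. The second had 17552 UMIs, 3186 genes, 31.4% RP, 524 UMIs of Malat1 (4.35% of RP-free UMIs), 47 UMIs of cDC1 markers with 3 of Xcr1 and 2 of Clec9a, 172 of immediate-early genes and 277 counts of the CD8A tag. Only the first had the low Malat1 and low total of most WT members. With 2 cells no comparison of genotypes within C18 can be made.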

How the data were processed

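The authors made the files with Cell Ranger on GRCm38/mm10 (10x 3′ kit v3, bcl2fastq 2.2.0; whether intronic reads were counted is not given in the sources used here), evened the depth of the libraries and filtered and clustered cells in Seurat 3.0.5 (16 components, resolution 0.5). The authors' limits on genes and on mitochondrial and ribosomal share per cell remove cells at the extremes of the very share described here. Used were the deposited raw counts (UMIs) of genes and adt, the centred log ratios of WT adt, a natural log of the deposited counts, and from the deposited cell table the cluster, phase, S and G2M score, reference label and the mitochondrial and ribosomal fraction given by the authors. Normalized expression and the Batf3-/- normalized adt were not used. The members and gene lists were chosen with earlier results of these data known.

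RP genes were 76 cytosolic Rpl and Rps genes and Rplp0 to Rplp2 without pseudogene entries. UMIs were summed per cluster and divided by the RP-free total; a level has an exact Poisson interval, a ratio an exact interval conditional on both sums, a share a Clopper-Pearson interval (95%). The floor was 3 counts. Named genes were those of the lists, the 12 highest and 12 lowest ratios and the 3 highest and lowest RP genes, of which 1 is not reported here. Few genes were added after their values were seen (Fndc5 and Cxcl9). The WT and Batf3-/- cells held 753 to 37040 and 741 to 32835 UMIs. Scrublet in scanpy 1.11.5 (expected rate 0.10) marked 541 WT and 244 Batf3-/- doublets, which were kept in the main values. Neighbours used 16 components of 2000 variable genes. Positions and lengths are from GENCODE M21 (GRCm38), start sequences from RefSeq. Scripts ran in Python 3.11.15 with scipy 1.17.1 and were tested on simulated data. Alternatives were another total or scaling, per-cell means, doublets or non-G1 cells left out, C4 cells of like depth, another reference and other minimums.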

Additional observations from a re-analysis of the deposited data

How the results depend on the processing

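No paired analysis was possible because each genotype is 1 library, so no replicate can be left out. The count of genes past 2-fold higher (27) was 12 on all UMIs, 254 against C4 cells of like depth, 48 with a minimum of 20 CPM, 1941 with no minimum on CPM, 261 at 1.5-fold and, added after seeing the data, 12 with a minimum of 200 CPM. The count lower (460) was 746 against C4 cells of like depth, 1249 at 20 CPM, 2710 with no minimum, 721 at 1.5-fold and 47 at 200 CPM. The median of RP genes (0.70) was 0.49 on all UMIs, 0.77 under median-of-ratios scaling, 0.76 as a mean over cells, 1.08 against C4 cells of like depth, 0.78 against C4, C6, C12 and C17 together and 0.74 and 0.73 without the hemoglobin-rich cells of C18 and of both clusters. Malat1 (-3.04) was -3.24 on all UMIs, -2.97 under median-of-ratios scaling, -3.54 as a mean over cells, -3.19 without doublets, -2.94 in G1 cells, -3.48 against C4 cells of like depth, -2.78 with the cells of both libraries, -3.45 without the hemoglobin-rich cells of C18 or of both clusters and -5.83 without the 7 cells of higher Malat1. The share of C18 was 2.14% in WT and 0.253% in Batf3-/- among cDC1 clusters, and the share of own neighbours was 74.8% with 1000 variable genes. Leaving out the hemoglobin-rich cells of C18 alone, also added later, turned Hba-a1 (-2.77), Hba-a2 (-1.80), Hbb-bs (-5.52) and Hbb-bt (-3.71), but C4 then keeps its own such cells and only 1 of the 4 stays testable. Leaving them out of both clusters gave -0.065, 1.19, -2.31 and -0.84 in that order, on 8 UMIs in C18 with none testable. Of the 53 list and named genes called, 46 to 53 stayed past 2-fold in the same direction under the 11 settings run, and only globins turned. The cause of these shifts was not tested. Depth limits what 76 cells can show, and a gene with 3 UMIs in the pool stands at 9.14 CPM.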

Other observations

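Cells with Malat1 under 0.5% of RP-free UMIs, the limit under which most C18 cells lay, were also found outside C18 and in both genotypes. In WT there were 183 of 12224 such cells, 116 of them outside C18 (0.955% of the other cells), and in Batf3-/- 140 of 12119, 139 of them outside C18 (1.15%). In WT they included 29 of 797 cells of C6, 20 of 2202 of C4, 18 of 29 of C19, in which erythroid genes summed to 300161 CPM, 16 of 394 of C12 and 8 of 243 of C10. In Batf3-/- they included 36 of 727 cells of C6, 23 of 36 of C19, 21 of 346 of C10 and 13 of C0.

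These cells were not alike in Malat1. Their median share was 0.060% in C4, 0.099% in C6 of WT and 0.076% in C12 of WT, near the 0.060% of the 67 C18 cells. It was 0.167% in C0 of Batf3-/-. In C6 of Batf3-/- (0.425%) and C10 of WT (0.394%) and Batf3-/- (0.433%) it lay not far under the limit. Their differences from the other cells of their cluster varied between clusters and are given as values of single libraries with no test. The 20 low-Malat1 cells of C4 had, against the other C4 cells, log2 ratios of -3.06 for Neat1, -3.62 for Xist, -1.67 for Jun and -2.55 for Hspa1a, an RP median of 0.30 and length medians of 0.22, 0.12, -0.03 and -0.37 from the shortest to the longest group. In the 16 such cells of C12 Neat1 was at -4.56, Jun at -3.19 and Hspa1a at -3.12, the RP median was 1.08, the RP share was a median of 27.1% against 14.1%, and the length medians were 0.93, 0.41, -0.12 and -1.01. In the 36 Batf3-/- cells of C6 Jun was at -0.68, Hspa1a at -0.37 and Fos at -0.02, the RP median was 0.13 and the length medians 0.11, 0.05, 0.03 and -0.07. In the 29 WT cells of C6 Jun was at -1.16 and Hspa1a at -2.17. Immediate-early and heat shock genes summed to 11807 CPM in low-Malat1 and 11789 in other C10 cells of Batf3-/-, and to 12860 and 11546 in C10 of WT. In the 13 Batf3-/- cells of C0 these genes summed to 8700 CPM against 15516 in the other C0 cells, with a median RP share of 33.9% against 24.8% and 1154 against 2284 detected genes. Sums of this list include the chaperone Hspa8, which alone made up most of the sum in C18.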
